A study of Bos taurus with 44 samples.

Results

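ISG15 is a small protein that cells attach to other proteins in much the same way as ubiquitin, and ISG15, UBA7, UBE2L6 and USP18 together carry out the core of that reaction and its reversal. They were chosen as the probes annotated with these symbols, which gave 4 of the 8073 named genes on the array, with 1 probe each (2 adjacent spots, averaged) and a value on all 44 arrays. The tissue was uterine lining of cattle, taken from caruncles, the button-like areas where the placenta attaches, or from the intercaruncular lining between them. Each array set 2 RNA samples against each other in the dyes Cy3 and Cy5, so a value is the log2 ratio of 2 samples and not a level on its own. The groups were animals with artificial insemination (AI), with embryos fertilised in vitro and transferred (IVF-ET) and with embryos cloned by somatic cell nuclear transfer (SCNT), and CJ animals, whose labels carry the word cycle. Caruncular arrays compared 5 IVF-ET with 5 AI animals (10 arrays) and 2 pools of SCNT with 2 pools of AI RNA (4 arrays). Intercaruncular arrays compared 5 IVF-ET with 5 AI animals, 5 SCNT with 5 CJ animals, and 4 AI with the same 5 CJ animals (10 arrays each). The labels call the AI animals set against CJ by another name (IAJ) than those set against IVF-ET (IAT). Here AI animals 1 to 4 are the former and 5 to 11 the latter, of which 3 were used in both areas. Breed, age, stage after insemination or transfer and the number of animals in a pool could not be read from the labels.

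Interferons switch on ISG15 and its enzymes. UBA7 is the activating enzyme (E1), UBE2L6 the conjugating enzyme (E2) that receives ISG15 from it, ligases such as HERC proteins direct ISG15 to its targets, and USP18 takes ISG15 off again and also dampens signalling at the type I interferon receptor. In ruminants the trophoblast of the early conceptus secretes interferon tau, a type I interferon, and ISG15 is a classical response of the pregnant endometrium, along with loss of the oxytocin receptor OXTR.

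Which dye is the numerator is not stated in the labels, and ratios were read as Cy5 over Cy3. This reading is likely because OXTR then lies lower in SCNT than in CJ animals, by 3.54 ± 0.32 on the log2 scale (log2 difference -3.54, SE, limma adjusted p = 1.74e-07), and MX1, an interferon-induced antiviral GTPase, higher by 4.06 ± 0.56. Under the other reading every sign given here turns, so the direction against CJ is fixed by this choice and is not a result. Across the arrays the median log2 ratio lay between -0.0164 and 0.0124, and the 2 spots of a probe correlated across probes, which are not independent replicates, with r of 0.545 to 0.935. For the members the spots differed by at most 0.79 on the log2 scale. Arrays have no read depth, and the number of animals limits the precision.

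The first intercaruncular comparison asked how SCNT animals differed from CJ animals. All 4 members were higher in SCNT, on 10 of 10 arrays each. The share of all probes with 1 sign on all 10 arrays, or with no overlap of SCNT and CJ animals, was not counted. For ISG15, the modifier itself, the array ratios ran from 2.48 to 5.80 on the log2 scale with a median of 4.64. The fitted levels of the SCNT animals, set against the mean of the CJ animals, were 4.66, 5.21, 4.00, 4.50 and 4.86 in animals 1 to 5. Those of the CJ animals lay between -0.17 and 0.33, with no overlap. Single arrays did not agree on the CJ animals, however. Against CJ animals 1 and 2, SCNT animal 3 had ratios of 5.59 and 2.48, and AI animal 1 had 3.01 and 5.68. The fit averages over such gaps, so the narrow CJ range does not measure how far the CJ animals differ. The fitted difference was 4.65 ± 0.60 (SE, 95% interval 3.40 to 5.90, 5 SCNT and 5 CJ animals), which is 25.1-fold and the second largest rise among 13824 probes (rank 2, limma adjusted p = 9.79e-06).

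UBA7, the E1, had SCNT levels of 1.00, 2.18, 2.15, 2.47 and 1.04 against CJ levels of -0.49 to 0.73. These fitted levels did not overlap, but the nearest were close (1.00 and 0.73) and carry the same limit. It rose by 1.77 ± 0.34 on the log2 scale (3.41-fold, limma adjusted p = 0.000656). UBE2L6, the E2, moved least of the members, by 0.80 ± 0.18 (1.74-fold, limma adjusted p = 0.00287). Its SCNT levels of 0.42 to 1.11 overlapped those of the CJ animals, whose highest was also 0.42. USP18, which removes ISG15, had SCNT levels of 1.86, 2.21, 1.62, 1.64 and 1.80 against -0.19 to 0.34 in CJ, and rose by 1.83 ± 0.25 (3.55-fold, limma adjusted p = 1.78e-05). Thus 4 of 4 members were called higher, where 10.4% of all probes were (21.7% in either direction).

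**Figure D1:**
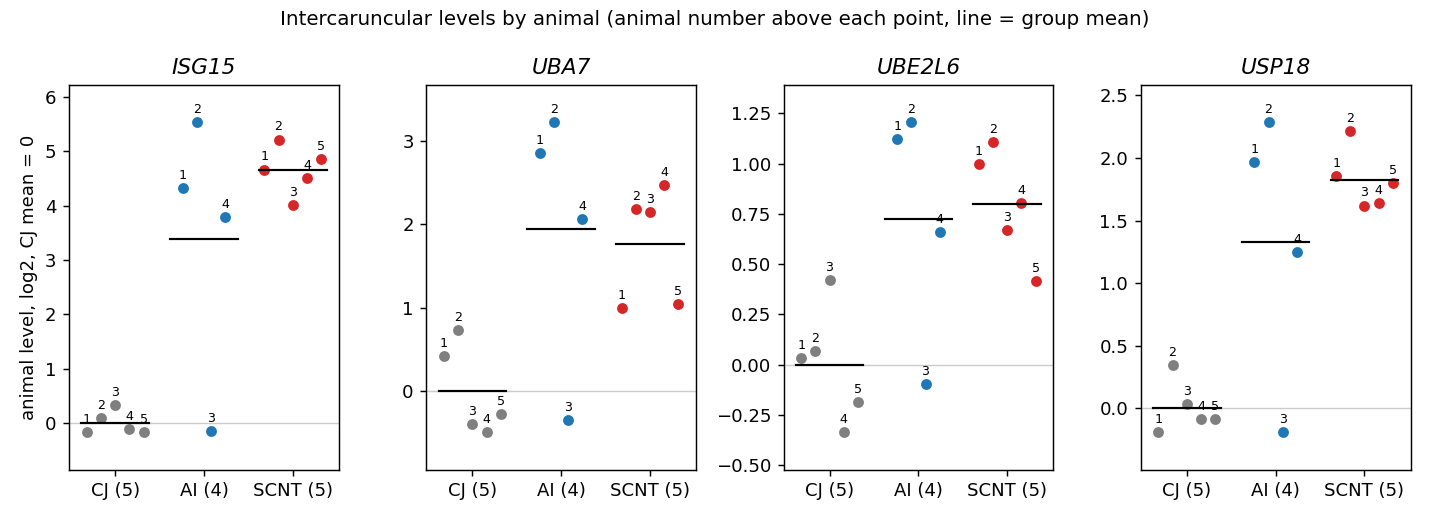
Level of each member in each intercaruncular animal of the arrays with CJ (y axis, log2, mean of the CJ animals set to 0), by group, with the animal's number above its point and a line at the group mean. SCNT animals lie above the CJ animals for ISG15, UBA7 and USP18, while AI animal 3 lies within the range of the CJ animals for ISG15, UBA7 and UBE2L6 and just below the lowest of them for USP18.

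The same 5 CJ animals served as controls for the AI animals, so the comparisons are not independent of each other. All 4 members were again called higher, against 6.92% of all probes (15% in either direction). ISG15 differed by 2.90 ± 0.62 on the log2 scale (SE, 4 AI and 5 CJ animals, 7.46-fold, limma adjusted p = 0.00252), UBA7 by 1.61 ± 0.35 (limma adjusted p = 0.00317), UBE2L6 by 0.61 ± 0.19 (limma adjusted p = 0.0310) and USP18 by 1.11 ± 0.26 (limma adjusted p = 0.00439). These SE and p rest on a spread shared with the SCNT arrays and on a correlation shared by all probes. They do not measure the spread between the AI animals, whose ISG15 levels had an SD of 2.45 (n = 4). When the 10 AI arrays were fitted without the SCNT arrays, 0 of 4 members passed, with limma adjusted p of 0.0511 for ISG15, 0.0565 for UBA7, 0.137 for UBE2L6 and 0.0581 for USP18. Of all probes 10.4% passed in that fit. The differences there were as large, at 3.06, 1.70, 0.66 and 1.18 on the log2 scale.

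The AI animals fell apart into 3 with high levels and 1 without. Fitted ISG15 levels were 4.31, 5.53 and 3.80 in AI animals 1, 2 and 4, in or near the range of the SCNT animals. In AI animal 3 the level was -0.13, inside the range of the fitted CJ levels. UBA7 followed with 2.86, 3.23 and 2.06 against -0.34. UBE2L6 had 1.13, 1.21 and 0.66 against -0.10, and USP18 had 1.96, 2.29 and 1.25 against -0.20. The pattern was the same for modifier, E1, E2 and deconjugase.

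AI animal 3 is named on 4 arrays, in both dyes and against CJ animals 3, 4 and 5, while the other AI animals are on 2 arrays each. A wrong label and a real difference of this animal cannot be told apart from these values, so it is the animal labelled AI 3 throughout. Its 4 arrays gave log2 ratios of -0.43, -0.36, -0.17 and 0.04 for ISG15, and -0.25, -0.12, -0.20 and -0.10 for USP18. On the 6 arrays of the other AI animals, ISG15 lay between 3.01 and 6.42 and USP18 between 1.12 and 2.31, so no array of the animal overlapped them. Because that animal carries more arrays, the fitted ISG15 difference of 2.90 is below the mean of the AI animals' levels, 3.38 ± 2.45 (SD, n = 4).

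Other genes of the same animal stood apart too. Its OXTR level was -1.20 on the log2 scale, between the CJ animals (-0.32 to 0.24) and the other AI animals (-4.38 to -2.59), and its MX1 level was -0.30 against 4.19 to 4.42 in the other AI animals. Of 20 measured interferon-induced effector genes, 17 were lower in it than in each of the other 3 AI animals, 15 lay within the range of the CJ animals, 4 below it and 1 above it. Of all probes 26.4% were lower in it than in each of the other 3 AI animals and 30.1% higher, and 62.8% lay within the range of the CJ animals. The mean level of 7 stromal markers was 0.45 there against -2.03 to -1.41 in the other AI animals. Over all probes its 4 arrays correlated with the SCNT minus CJ differences at r of -0.02 to 0.31, and the other 6 AI arrays at 0.59 to 0.80. The part of these other shifts in the members' values was not tested.

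Without AI animal 3, the AI minus CJ differences were 4.61 ± 0.33 for ISG15, 2.46 ± 0.25 for UBA7, 1.05 ± 0.15 for UBE2L6 and 1.81 ± 0.15 for USP18 on the log2 scale (3 AI animals). The limma adjusted p were 4.00e-08, 1.84e-06, 7.59e-05 and 1.89e-07, and 20.4% of all probes were called in that fit. AI animal 3 was singled out after its low values of these members were seen. Smaller p follow from that choice and are no further support. UBE2L6 lost its call without AI animal 1, 2 or 4, or without CJ animal 1, 2, 4 or 5 (adjusted p = 0.0657 to 0.167 by limma), with differences of 0.44 to 0.62.

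**Figure D2:**
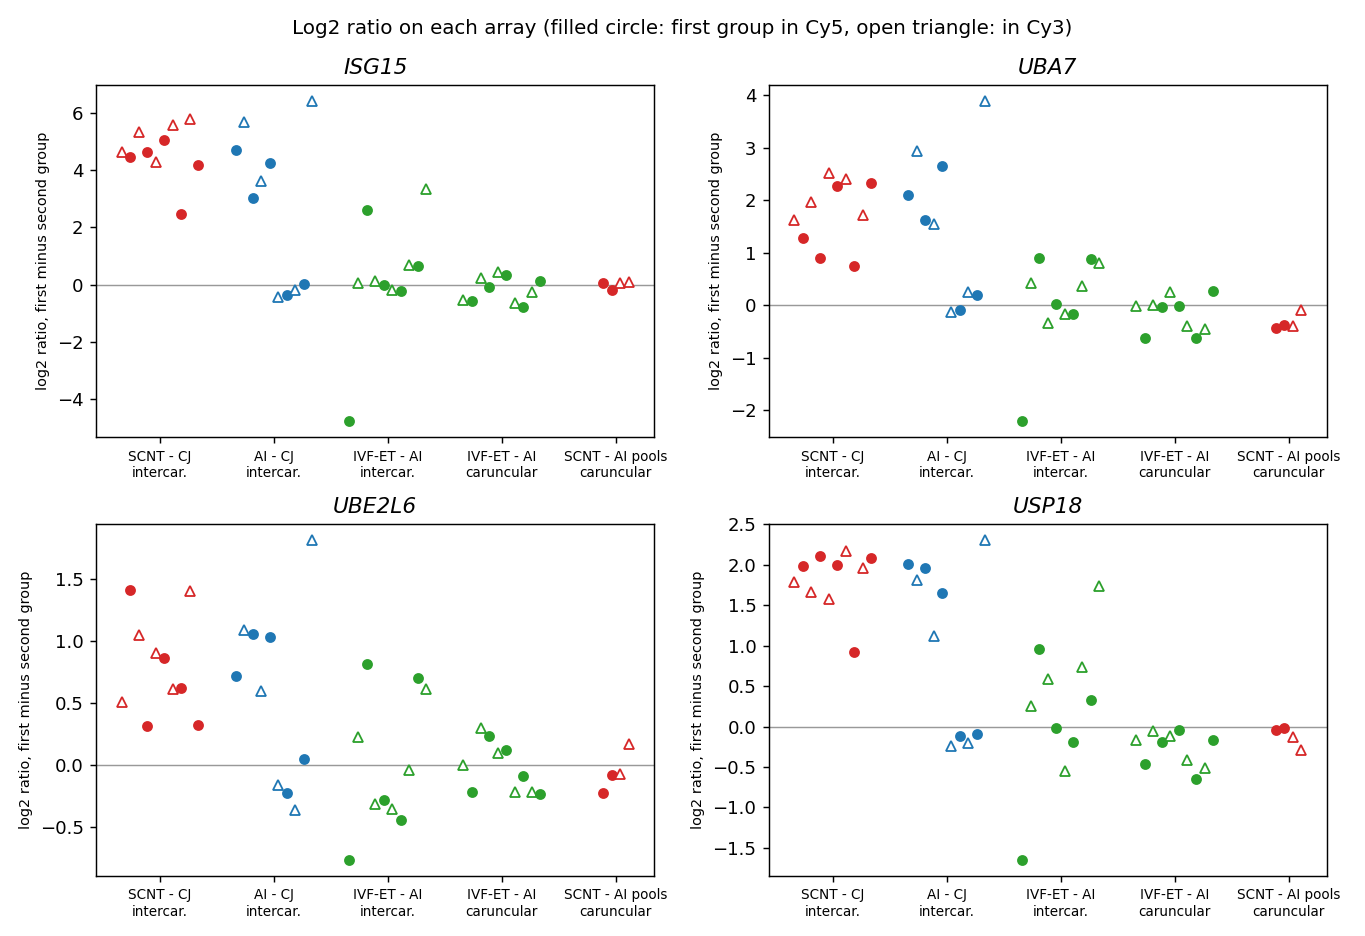
Log2 ratio of each member on each of the 44 arrays (y axis, first group minus second), by array set; filled circles have the first group in Cy5 and open triangles in Cy3. All SCNT minus CJ ratios lie above 0, the 4 arrays of AI animal 3 lie near 0, and the intercaruncular IVF-ET set holds the largest negative ISG15 ratio, -4.77.

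SCNT and AI met in the intercaruncular area only through the shared CJ animals. There 0 of 4 members were called different between them, where 0.282% of all probes were. ISG15 was higher in SCNT by 1.75 ± 0.78 on the log2 scale (95% interval 0.13 to 3.37, limma adjusted p = 0.60, 0.0355 before adjustment) and USP18 by 0.71 ± 0.32 (limma adjusted p = 0.604, 0.0380 before adjustment). UBA7 and UBE2L6 differed by 0.16 ± 0.44 and 0.19 ± 0.24 (limma adjusted p = 0.995 and 0.983). Without AI animal 3, chosen after its values were seen, the ISG15 difference was 0.03 ± 0.42 and that of USP18 0.01 ± 0.19. UBA7 then turned to -0.68 ± 0.32 and UBE2L6 to -0.25 ± 0.19 (limma adjusted p = 1.000 for all 4).

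In the caruncular area SCNT and AI were hybridised directly, as pools. The 4 ISG15 ratios were 0.05, -0.19, 0.04 and 0.09 on the log2 scale, on both sides of 0, and the difference was 0.00 ± 0.09 (SE, 2 pools per group, 95% interval -0.23 to 0.22). UBA7 was below 0 on all 4 arrays, at -0.44, -0.39, -0.40 and -0.09, with a difference of -0.33 ± 0.09 that did not pass (limma adjusted p = 0.263, 0.0115 before adjustment). UBE2L6 differed by -0.06 ± 0.08 and USP18 by -0.12 ± 0.08. Of all 13824 probes 0 passed (0%) by limma, and 1744 had an unadjusted p below 0.05.

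IVF-ET and AI animals were compared in both areas. In the intercaruncular area 0 of 4 members passed, where 0.00724% of all probes did (1 probe by limma, 1285 at an unadjusted p below 0.05). The ISG15 difference was 0.23 ± 0.54 on the log2 scale (SE, 5 IVF-ET and 5 AI animals, 95% interval -0.94 to 1.40, limma adjusted p = 0.934), a wide interval. UBA7 differed by 0.05 ± 0.24, UBE2L6 by 0.01 ± 0.16 and USP18 by 0.22 ± 0.23 (limma adjusted p = 0.968, 0.989 and 0.805).

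Single pairs of animals differed far more than the groups. ISG15 was lower in IVF-ET animal 3 than in AI animal 8 by 4.77 on the log2 scale (ratio -4.77), yet higher in the same IVF-ET animal than in AI animal 7, by 3.35. It was higher in IVF-ET animal 2 than in AI animal 6 by 2.61. The other 7 arrays lay between -0.24 and 0.68. The enzymes had the sign of ISG15 on these 3 arrays. UBA7 had -2.21, 0.81 and 0.90, UBE2L6 had -0.77, 0.61 and 0.81, and USP18 had -1.65, 1.74 and 0.96. OXTR had the opposite sign, with 2.59, -1.13 and -0.23, the last of them inside its range of -0.52 to 0.48 on the other 7 arrays. MX1 had the sign of ISG15, with -4.10, 4.13 and 3.34. ISG15 was thus higher in the IVF-ET animal on 2 of these arrays and in the AI animal on 1.

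The arrays form a ring in which each animal links 2 neighbours, so the difference between AI animals 8 and 7 can be read along 2 routes. For ISG15 the route through IVF-ET animal 3 put AI animal 8 higher by 8.13 on the log2 scale, and the route over the other 8 arrays by 2.33. The routes differed by 5.79 for ISG15, 3.33 for USP18, 1.68 for UBA7 and 0.10 for UBE2L6. The dyes alternate around the ring, so a dye effect of the probe adds up along it and is part of this gap. The fitted dye term for ISG15 was -0.58 in this ring, -0.03 in the caruncular ring and -0.41 in the fit with CJ. In the same order it was -0.33, -0.03 and 0.03 for USP18, -0.17, -0.04 and -0.24 for UBA7, and -0.01, -0.01 and -0.07 for UBE2L6. This term is the gap spread over the arrays of the fit, so it is not a separate value beside the gap. A dye effect and a wrong label of an array cannot be told apart from these values. The ring's ratios and fitted differences are given as labelled. In the caruncular ring the same check gave differences of at most 0.41 in size (-0.26 for ISG15). The rings with CJ did not close for every member either. Arrays with the first group in Cy5 minus those in Cy3 summed to -4.80 for ISG15 around the SCNT and CJ ring. UBA7, UBE2L6 and USP18 gave -2.71, -0.95 and -0.07 there. Around the AI and CJ ring the sums were -3.49, -2.04, -0.35 and 0.61, in the order ISG15, UBA7, UBE2L6 and USP18. No levels of single animals are given for the intercaruncular IVF-ET ring, and the levels given for the animals of the CJ arrays carry gaps of this kind too. Without IVF-ET animals 2 and 3, a choice made after these values were seen, ISG15 differed by 0.17 ± 0.15 (SE), and 0 of 4 members passed, as did 0 of 13816 probes by limma.

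**Figure D3:**
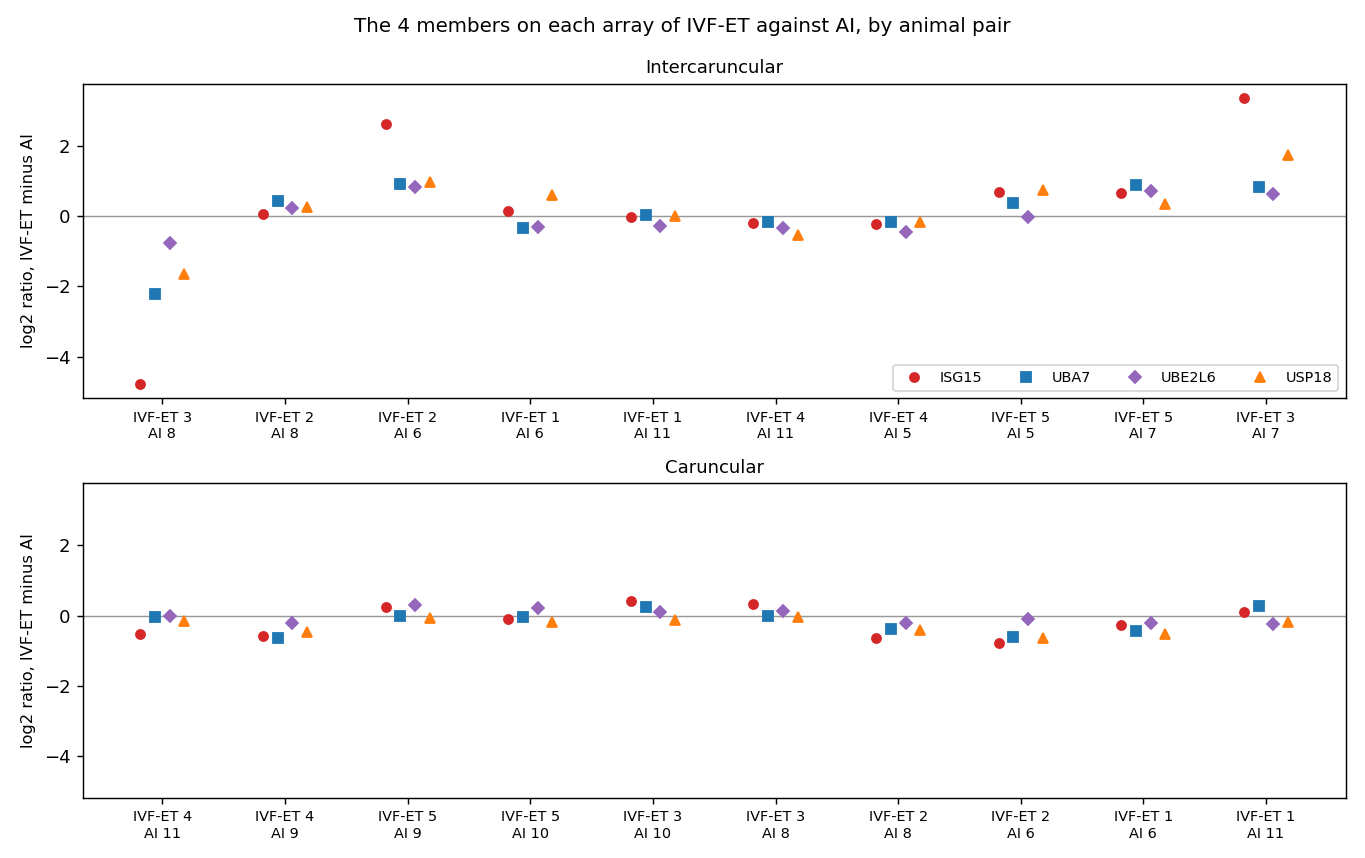
Log2 ratio of the 4 members (y axis, IVF-ET minus AI) on each array of the intercaruncular (top) and caruncular (bottom) rings, with the animal pair on the x axis. Intercaruncular ISG15 spans -4.77 to 3.35 and caruncular ISG15 -0.77 to 0.42.

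In the caruncular area 0 of 4 members passed, where 0.0217% of all probes did (3 probes by limma, 1260 at an unadjusted p below 0.05). ISG15 ratios ran from -0.77 to 0.42 with a median of -0.17, above 0 on 4 of 10 arrays, and the difference was -0.18 ± 0.14. UBA7 differed by -0.17 ± 0.11 and UBE2L6 by -0.02 ± 0.07. USP18 was below 0 on all 10 arrays (-0.65 to -0.05). These arrays share animals, and the share of all probes with 1 sign on all 10 was not counted. Its difference of -0.28 ± 0.07 on the log2 scale (95% interval -0.44 to -0.12) had p = 0.00236 before adjustment and a limma adjusted p of 0.361, so it did not pass.

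For 6 pairs the same 2 animals were hybridised in both areas, in the same dyes. ISG15 in IVF-ET animal 3 against AI animal 8 was 0.33 in the caruncles and -4.77 between them. In IVF-ET animal 2 against AI animal 6 it was -0.77 and 2.61. The other 4 pairs lay between -0.63 and 0.11 in the caruncles and between -0.20 and 0.14 in the intercaruncular area. These 2 large intercaruncular ratios were thus not seen in the caruncles of the same animals, and IVF-ET animal 3 was not set against AI animal 7 there. The mean IVF-ET minus AI differences of the areas were not told apart for any member (0 of 4, limma). In this fit the areas of 1 animal entered as separate animals, so the pairing of areas within an animal was not used. They differed, caruncular minus intercaruncular, by -0.40 ± 0.63 for ISG15, -0.22 ± 0.29 for UBA7, -0.04 ± 0.18 for UBE2L6 and -0.50 ± 0.27 for USP18, with limma adjusted p of 0.654 to 0.970. Of all probes 0.00723% passed (1 probe, 1070 at an unadjusted p below 0.05).

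**Figure D4:**
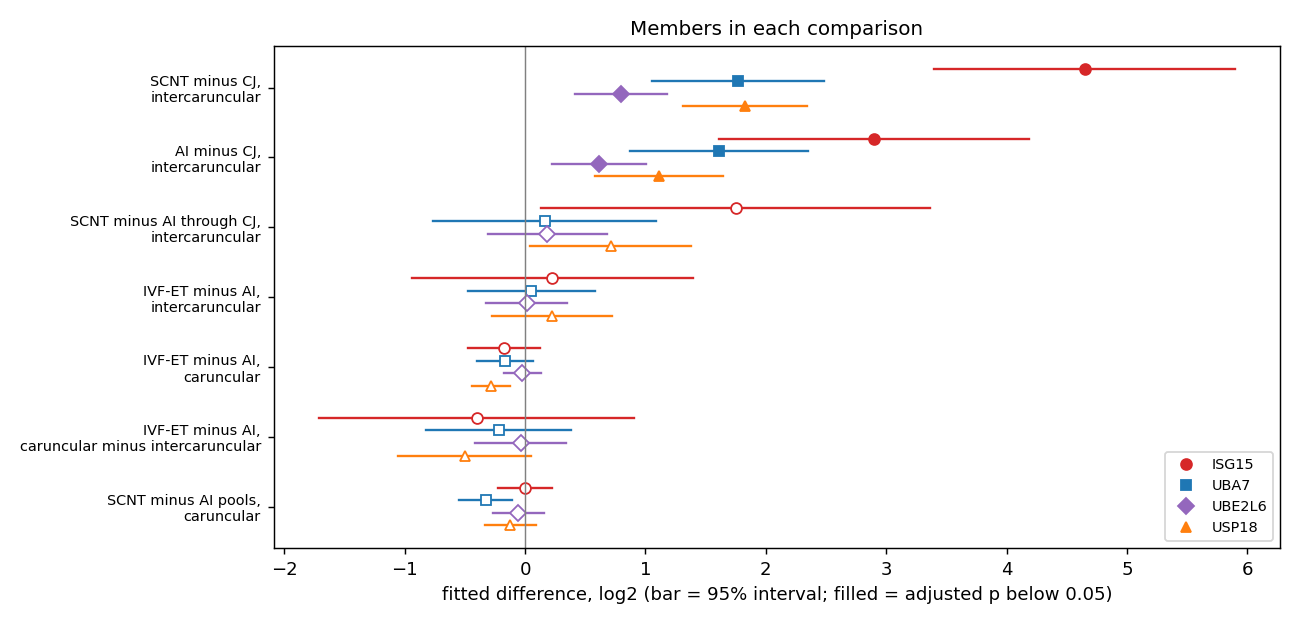
Fitted log2 difference of each member in the 7 comparisons (x axis) with its 95% interval; filled symbols have a limma adjusted p below 0.05. Filled symbols occur in the comparisons of SCNT and of AI with CJ, 4 in each, and the largest is ISG15 in SCNT minus CJ, 4.65.

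The remaining genes of the reaction were read from fixed lists. Of the ligases and partners of ISG15, 9 of 10 were measured, 2 were higher and 1 was lower in the SCNT than in the CJ animals. The list median was -0.08 against 0.01 for all probes, of which 10.4% were higher (21.7% called in either direction). HERC6, of the family that holds the main ISG15 ligase, rose by 1.32 ± 0.22 on the log2 scale (limma adjusted p = 0.000143), and TRIM25, an interferon-induced ligase for ubiquitin and ISG15, by 0.99 ± 0.12 (limma adjusted p = 4.63e-06). USP5, a general deubiquitinase that can also bind ISG15, fell by 0.48 on the log2 scale (SE 0.08, limma adjusted p = 9.33e-05). ARIH1, a further ISG15 ligase, was at -0.04 ± 0.10. In AI against CJ animals the counts were 2 higher and 1 lower, where 15% of all probes were called. HERC6 was at 0.85 ± 0.23 and TRIM25 at 0.64 ± 0.12.

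The enzymes of other ubiquitin-like modifiers gave mixed values. Of 6 other E1 genes 0 were higher and 3 were lower in the SCNT than in the CJ animals, among them UBA2 and SAE1 of the SUMO pathway (-0.38 and -0.33 on the log2 scale) and UBA3 of the NEDD8 pathway (-0.30). Of 28 other E2 genes 1 was higher and 8 were lower, with UBE2E3 at -0.82 ± 0.13 and UBE2A at -0.67 ± 0.11, where 21.7% of all probes were called. Of 42 other deconjugases 8 were higher and 5 lower, led by USP19 (0.74 ± 0.10) and USP20 (0.60 ± 0.09). Of 15 other modifiers 7 were higher and 3 lower. Among them were GABARAPL1 and GABARAPL2, which act in autophagy (1.39 and 1.15), and UBD, a modifier induced by cytokines (1.02 ± 0.19, limma adjusted p = 0.000438). The 1 other E2 gene called higher was UBE2B, at 0.34. In size, UBE2E3 moved as far as UBE2L6. In AI against CJ animals 0 of 6 other E1, 1 of 28 other E2, 4 of 42 other deconjugases and 6 of 15 other modifiers were higher, and 1, 9, 4 and 4 lower. Without AI animal 3, chosen after its values were seen, the counts were 0, 0, 8 and 6 higher and 1, 12, 5 and 2 lower. Of all probes 15% were called in AI against CJ animals, and 20.4% without AI animal 3.

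**Figure D5:**
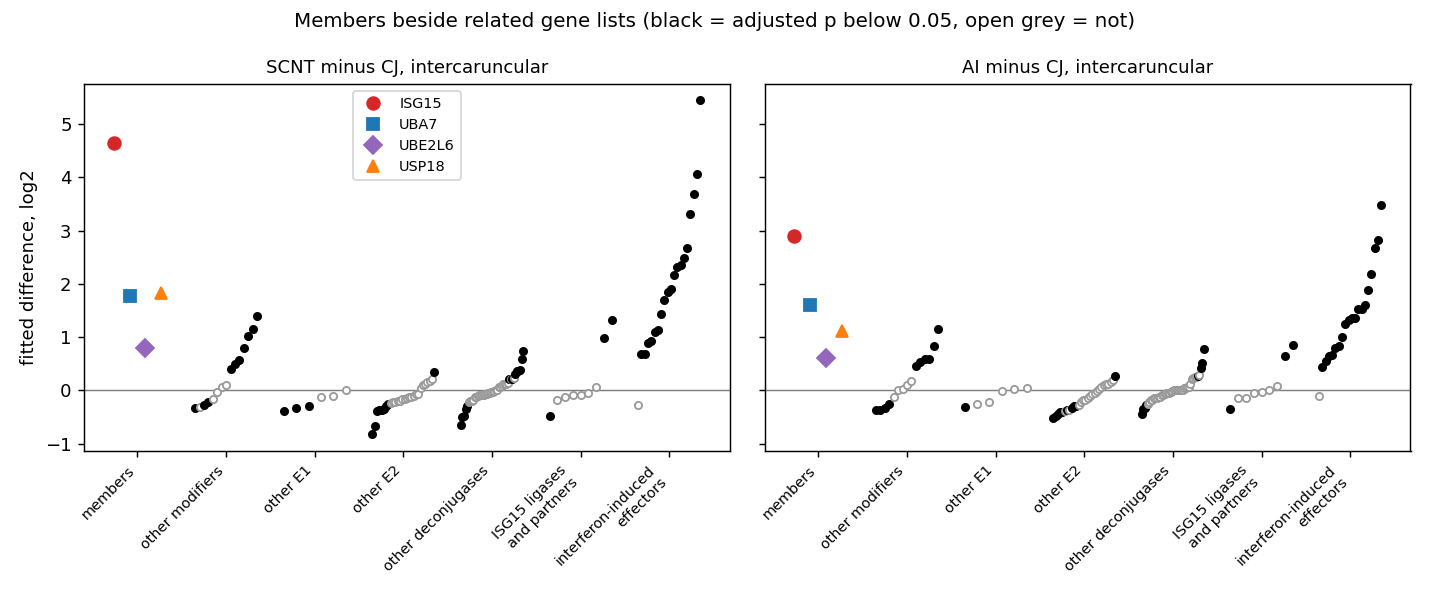
Fitted log2 difference (y axis) of the members and of each measured gene of 6 related lists in SCNT minus CJ (left) and AI minus CJ (right); black points have a limma adjusted p below 0.05. With the dyes read as Cy5 over Cy3, members lie above all other E1 and E2 genes in both panels, and 19 of 20 interferon-induced effectors are black and above 0.

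Of 20 measured interferon-induced effectors, 19 were higher and 0 lower in SCNT and likewise in AI against CJ animals, with list medians of 1.87 and 1.34 on the log2 scale. Of all probes 10.4% were higher in SCNT and 6.92% in AI against CJ animals (21.7% and 15% in either direction). RSAD2, an antiviral enzyme, led with 5.44 ± 0.66 in SCNT and 3.48 ± 0.68 in AI animals. The exception was IFI30, a lysosomal reductase, at -0.27 ± 0.11 and -0.11 ± 0.12. Without AI animal 3 the AI counts were 19 higher and 1 lower, where 20.4% of all probes were called. Of 13 genes of the interferon receptor and its JAK-STAT path, 6 were higher and 0 lower in each comparison, among them the transcription factors IRF1 (0.89 ± 0.11 in SCNT) and IRF7 (1.07 ± 0.25). In the other 5 comparisons 0 genes of these lists passed.

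The ratio of ISG15 ran most closely with that of other interferon-induced genes. Over the 40 arrays of single animals, Pearson's r with ISG15 was 0.979 for RSAD2, 0.977 for EPSTI1, 0.976 for USP18, 0.975 for MX2, 0.972 for IFI16 and ZNFX1, 0.969 for MX1 and 0.967 for CMPK2, the highest of 8644 other named probes. UBA7 followed with 0.954 (rank 14) and UBE2L6 with 0.904 (rank 54). These arrays share animals and alternate in dye orientation, which makes the CJ arrays swing between large positive and large negative values, and r is given as a description. On the 10 caruncular IVF-ET arrays, where ratios were small, r with ISG15 was 0.84 for UBA7, 0.75 for USP18 and 0.57 for UBE2L6.

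Markers of cell types moved in the same comparison. In SCNT against CJ animals 6 of 7 stromal markers and 5 of 6 smooth muscle markers were lower and none of either higher. Of all 13824 probes 1558 were lower and 1436 higher (21.7% in either direction). The mean stromal level lay between -2.06 and -1.67 in SCNT and between -0.64 and 0.37 in CJ animals, on the log2 scale, and that of smooth muscle between -1.92 and -1.40 against -0.45 and 0.39. In AI against CJ animals 3 of 7 stromal and 3 of 6 smooth muscle markers were lower, and 6 of 7 and 4 of 6 without AI animal 3. Of all probes 1117 were lower and 957 higher (15% in either direction), and 20.4% were called without AI animal 3. Of 8 epithelial markers 4 were higher and 1 lower in SCNT against CJ animals. In AI against CJ animals 2 were higher and 0 lower, and 3 and 1 without AI animal 3. Of 13 trophoblast markers 4 were higher in SCNT against CJ animals, with IFNT2, an interferon tau gene, at 0.66 ± 0.22 (limma adjusted p = 0.0382). The SCNT animals were not alike in this. Their mean trophoblast level was 0.94 in animal 4, 0.49 in animal 1, and 0.01, 0.04 and 0.15 in animals 2, 3 and 5. The CJ animals lay between -0.10 and 0.10. In AI against CJ animals 0 of 13 were higher, and IFNT2 was at -0.01 ± 0.23. Among leukocytes 1 of 7 T and NK cell, 0 of 5 macrophage and 0 of 3 B cell markers passed in SCNT against CJ animals, the T and NK cell marker upward. Ratios do not show whether a marker was absent, and in bulk tissue fewer cells of a type and less RNA per cell cannot be told apart. What share they have in the members' values was not tested.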

How the data were processed

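The authors deposited a log2 dye ratio for each spot. Base 2 was checked on the 331 values below -4, all of which (100%) matched a 4-decimal ratio to within 6e-05. How background was corrected and arrays normalized is not given in the sources used here, and the values were used as they stand. The 27648 rows are 13824 probes with 2 spots, which were averaged. Per the labels' protocols, cDNA was made with oligo-dT primers before dye coupling. Probes with a value on 80% of a fit's arrays entered a generalised least squares fit (limma 3.58.1, R 4.3.3) that had a dye term. It also had a shared correlation between arrays of the same animal and area (0.13 caruncular, 0 intercaruncular, 0.01 both rings, 0.12 with CJ). The 2 dye-swapped arrays of each pool pair were averaged. P-values were adjusted by Benjamini-Hochberg over all probes, with 0.05 as the threshold. Animal levels are least-squares values against the control mean. Arrays of the same dye orientation within a set correlated at -0.21 or above. The code was tested on simulated data. Members and lists were chosen with earlier results of these data known. Named were every member, up to 4 called genes per list and comparison with the smallest p, OXTR and MX1, and the 8 probes most like ISG15; ARIH1, IFI30 and UBE2B were named after their values were seen. Alternatives were each spot alone, centred or scaled arrays, other filters, no correlation, no dye term, arrays fitted alone and each animal left out.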

Additional observations from a re-analysis of the deposited data

Results flagged for a closer look

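A sample far from the others was looked for in 48 sets of animals or arrays, and 5 such values were found; chance alone marks about 1 set in 20. In SCNT against CJ, the array of SCNT animal 3 and CJ animal 2 was the lowest for ISG15, at 2.48 against 4.19 to 5.80 on the other 9 arrays, and for USP18, at 0.92 against 1.57 to 2.17. In the intercaruncular ring of IVF-ET and AI, the array of IVF-ET animal 3 and AI animal 8 was the lowest for ISG15, at -4.77 against -0.24 to 3.35, and for UBA7, at -2.21 against -0.34 to 0.90. Among the pools, 1 array (SCNT pool 1 against AI pool 2, SCNT in Cy3) had a UBA7 ratio of -0.091 against -0.44 to -0.39 on the other 3 arrays, which include the same pools with dyes exchanged. AI animal 3 was not marked by this measure.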

How the results depend on the processing

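Leaving single animals aside, 315 values of the members and of their counts were computed under other settings, and 302 kept their direction and their side of the threshold. This share is no measure of robustness, because several settings could not change the members' differences. Members had a value on all 44 arrays, so filters on missing values did not touch them. The dyes were balanced within each ring, and the intercaruncular IVF-ET fit already had a correlation of 0. With the 10 arrays of AI and CJ fitted alone, 0 of 4 members passed in AI minus CJ (ISG15 3.06, UBA7 1.70, UBE2L6 0.66, USP18 1.18); the cause was not tested. With the first spot only, UBE2L6 missed the threshold there (0.62, limma adjusted p = 0.0506) and ISG15 of the pools became 0.012. Small values changed sign, the cause of which was not tested. UBE2L6 in intercaruncular IVF-ET minus AI became -0.028 with the second spot only, -0.020 with scaled arrays and -0.13 without IVF-ET animals 2 and 3, and its difference between areas 0.0048 and 0.10 under the last 2. UBA7 in SCNT minus AI through CJ became -0.060 with scaled arrays. The SCNT minus CJ calls held in all settings and with each animal left out. Linking the areas of an animal by a replicate block changed no call. Animal levels were the same without a dye term. Each animal was in Cy3 as often as in Cy5 within its ring, so they had to be, and this is no check.

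Leaving out 1 animal at a time, ISG15, UBA7 and USP18 kept their calls in AI minus CJ (2.19 to 4.61, 1.23 to 2.46 and 0.82 to 1.81), and UBE2L6 ranged from 0.44 to 1.05. In SCNT minus AI through CJ, UBA7 ranged from -0.68 to 0.55 and UBE2L6 from -0.25 to 0.36. In intercaruncular IVF-ET minus AI the ranges were -0.24 to 0.87 for ISG15, -0.16 to 0.29 for UBA7 and -0.15 to 0.12 for UBE2L6. In the caruncular area UBE2L6 ranged from -0.097 to 0.025. Between areas ISG15 ranged from -1.07 to 0.087, UBA7 from -0.48 to 0.020 and UBE2L6 from -0.12 to 0.13. With 1 pool pair left the ISG15 value was -0.077 or 0.072, with no test. Signal over background was not analysed here.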
